A study of Mus musculus with 6 samples.

Results

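The Notch pathway genes described here are 10 named genes, taken as a fixed set of 3 receptors (Notch1, Notch2 and Notch3), 3 ligands (Jag1, Jag2 and Dll1) and 4 HES/HEY transcription factor genes (Hes1, Hey1, Hey2 and Heyl), out of 55401 genes in the count files. The set was chosen by name and function, with earlier results of these data known. Of the 10 genes, 9 passed the filter on low counts and were tested, and Hey2 had 0 counts in every library. They were measured by bulk RNA-Seq of poly(A) RNA from NIH3T3 cells, an immortalized line of mouse embryonic fibroblasts, in 6 libraries. EV was 2 libraries of cells carrying the empty vector and given DMSO, the vehicle. TC was 1 library of cells stably expressing TAZ-CAMTA1 and given DMSO, and TC + ATA was 3 libraries of TAZ-CAMTA1 cells given aurintricarboxylic acid (ATA) at 10 μM. All cells were seeded for 16 h and then kept in DMSO or ATA for 48 h. TAZ-CAMTA1 is the fusion protein of epithelioid hemangioendothelioma, a vascular sarcoma, and ATA was studied as a compound that disturbs binding of TAZ to TEAD transcription factors. There was no EV + ATA group, and nothing in the labels says that the libraries of a group came from separate cultures, so p-values measure only the spread between these libraries.

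In Notch signalling, a Jagged or Delta-like ligand on one cell binds a Notch receptor on its neighbour. The receptor is then cut by an ADAM protease and by γ-secretase, and its freed intracellular domain enters the nucleus, where it joins RBPJ and a Mastermind-like protein at target genes such as the HES and HEY genes, which encode transcriptional repressors. In fibroblasts and other mesenchymal cells the pathway is known for its part in deciding cell fate and differentiation.

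In cells expressing TAZ-CAMTA1, Notch1 fell by 1.10 on the log2 scale (SE 0.17), and Notch2 and Hes1 rose by 0.58 (SE 0.10) and 0.52 (SE 0.16), in 1 TC library against 2 EV libraries. The 3 ligands, Hey1 and Heyl did not pass the test in any comparison. With ATA, no gene of the set passed the test against TC, and Notch1, Notch2 and Hes1 differed from EV in the same direction as in TC. Notch3 passed the test only in TC + ATA against EV, where it was lower. The calls for Hes1 in TC against EV and for Notch3 were lost in part of the alternative analyses, as given with their values.

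Promoter sequence is shown for Notch1 and Notch2, the receptors called in TC versus EV, and for Hey2. The Hey2 window was the only one with both motifs, and Hey2 had 0 counts in every library. TEAD is the partner of TAZ-CAMTA1 and RBPJ that of the Notch receptors, and both motifs were searched in every window available. The sequences are RefSeq's, on GRCm38.p6, and each is given 5′ to 3′ on the strand of the gene, from 250 bases before its RefSeq start to the last base before an annotated exon, short of that start. The RefSeq table held a window of 250 bases before and 50 after the start for 7 of the 10 genes. It held none for Hes1, Hey1 or Heyl, so their promoters were not searched. The Notch1 start of that table lies inside the annotated span of the gene. Capitals mark matches to the TEAD motif GGAATG or the RBPJ motif GTGGGAA on either strand, where the reverse complements read CATTCC and TTCCCAC.
Notch1, chr2:26503825-26504072, minus strand: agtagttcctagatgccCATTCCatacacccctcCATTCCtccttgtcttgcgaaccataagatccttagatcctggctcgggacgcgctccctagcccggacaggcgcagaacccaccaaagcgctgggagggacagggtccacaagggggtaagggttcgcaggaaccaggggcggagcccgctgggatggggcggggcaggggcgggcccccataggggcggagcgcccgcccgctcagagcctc
Notch2, chr3:98013288-98013526, plus strand: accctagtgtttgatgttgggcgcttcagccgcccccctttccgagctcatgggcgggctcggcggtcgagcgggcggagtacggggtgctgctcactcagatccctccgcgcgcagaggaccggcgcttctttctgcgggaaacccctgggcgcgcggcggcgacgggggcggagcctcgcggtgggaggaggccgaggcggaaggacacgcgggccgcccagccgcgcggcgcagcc
Hey2, chr10:30842802-30843033, minus strand: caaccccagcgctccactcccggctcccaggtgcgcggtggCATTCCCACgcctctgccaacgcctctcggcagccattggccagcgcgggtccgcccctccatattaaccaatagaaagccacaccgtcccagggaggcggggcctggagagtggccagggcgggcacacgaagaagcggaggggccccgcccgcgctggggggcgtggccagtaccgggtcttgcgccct
The Notch1 window had the TEAD letters at 2 places, -233 and -216 bases from the start, and no RBPJ match. The Notch2 window had neither motif, and the same was true of the windows of Notch3, Jag1, Jag2 and Dll1. In the Hey2 window the TEAD letters from -209 and the RBPJ letters from -207 overlapped, as the capitals show, and a second RBPJ match began at -4 and ran over the start, outside the stretch printed. Of 32851 RefSeq promoter windows of this length, 14.7% held the TEAD letters and 6.38% the RBPJ letters. HES and HEY proteins bind E-box and N-box letters. CACGTG, the E-box, was in none of the 7 genes' windows and in 7.15% of all windows, and CACNAG, the N-box, was in the windows of Notch1, Notch2, Notch3 and Dll1 and in 42.5% of all windows. These matches describe letters only and are not measured binding sites.

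The 6 libraries held 58471484 to 74413193 counts. Levels are given as CPM, each gene's counts relative to the TMM-scaled library total. Counts differed least among the TC + ATA libraries, with a chi-square per degree of freedom of 5.86 to 6.61 over genes. It was 22.8 to 24.7 between TC and TC + ATA and 61.3 for the 2 EV libraries. Between EV and either TAZ-CAMTA1 group it was 220 to 263. The EV libraries thus differed more from each other than TC did from TC + ATA. The 6 fibroblast markers were detected in every library, with a summed level of 11418 to 16173 CPM, most of it Col1a1, Col1a2 and Vim. They did not move together. Col1a1 and Vim were called higher in TC than in EV, at log2 fold changes of 0.53 and 0.64 (adjusted p = 0.0103 and 0.00658 by edgeR), whereas Thy1 and Pdgfra fell by 1.47 and 1.20 (adjusted p = 1.03e-05 and 1.31e-05 by edgeR). The part of these shifts in the results below was not tested. The summed level of the 6 endothelial markers was 1.82 to 3.89 CPM, that of the 5 epithelial markers 0.328 to 1.28 CPM and that of the 4 leukocyte markers 4.33 to 9.09 CPM. The 6 smooth muscle and pericyte markers summed to 390 and 513 CPM in EV, 671 CPM in TC and 1230 to 1289 CPM in TC + ATA, most of it Acta2, the α-actin of smooth muscle and of activated fibroblasts, while Cspg4, a pericyte marker, was at 42.4 to 49.3 CPM and Tagln and Myh11 were below 1 CPM throughout. In bulk RNA a lower share of some cells and less RNA per cell cannot be told apart. Wwtr1, the mouse gene of TAZ, had 110 and 104 CPM in EV, 139 CPM in TC and 129 to 131 CPM in TC + ATA (TC versus EV log2 fold change 0.37, adjusted p = 0.00697 by edgeR). Camta1 did not pass that test (log2 fold change 0.16, adjusted p = 0.411 by edgeR). Whether reads of the fusion transcript are part of these mouse counts is not given in the sources used here.

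The first question was which genes of the set differed between TC and EV. Differences are log2 fold changes with standard errors (SE) from edgeR's quasi-likelihood test on all 6 libraries, with Benjamini-Hochberg adjustment over the 18539 genes tested, and a gene was called when its adjusted p-value did not exceed 0.05. TC has 1 library, so the spread comes from EV and TC + ATA. Of the 9 genes tested, 2 were called higher in TC (Notch2 and Hes1) and 1 lower (Notch1). The whole transcriptome gave 14.8% higher and 13.2% lower calls, so the numbers for the set are near this background. The median log2 fold change was 0.15 for the set and -0.03 for all genes tested. None of the 9 also passed the study's added limit of 2 on the absolute log2 fold change, which 3.64% of all genes tested did.

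**Figure D1:**
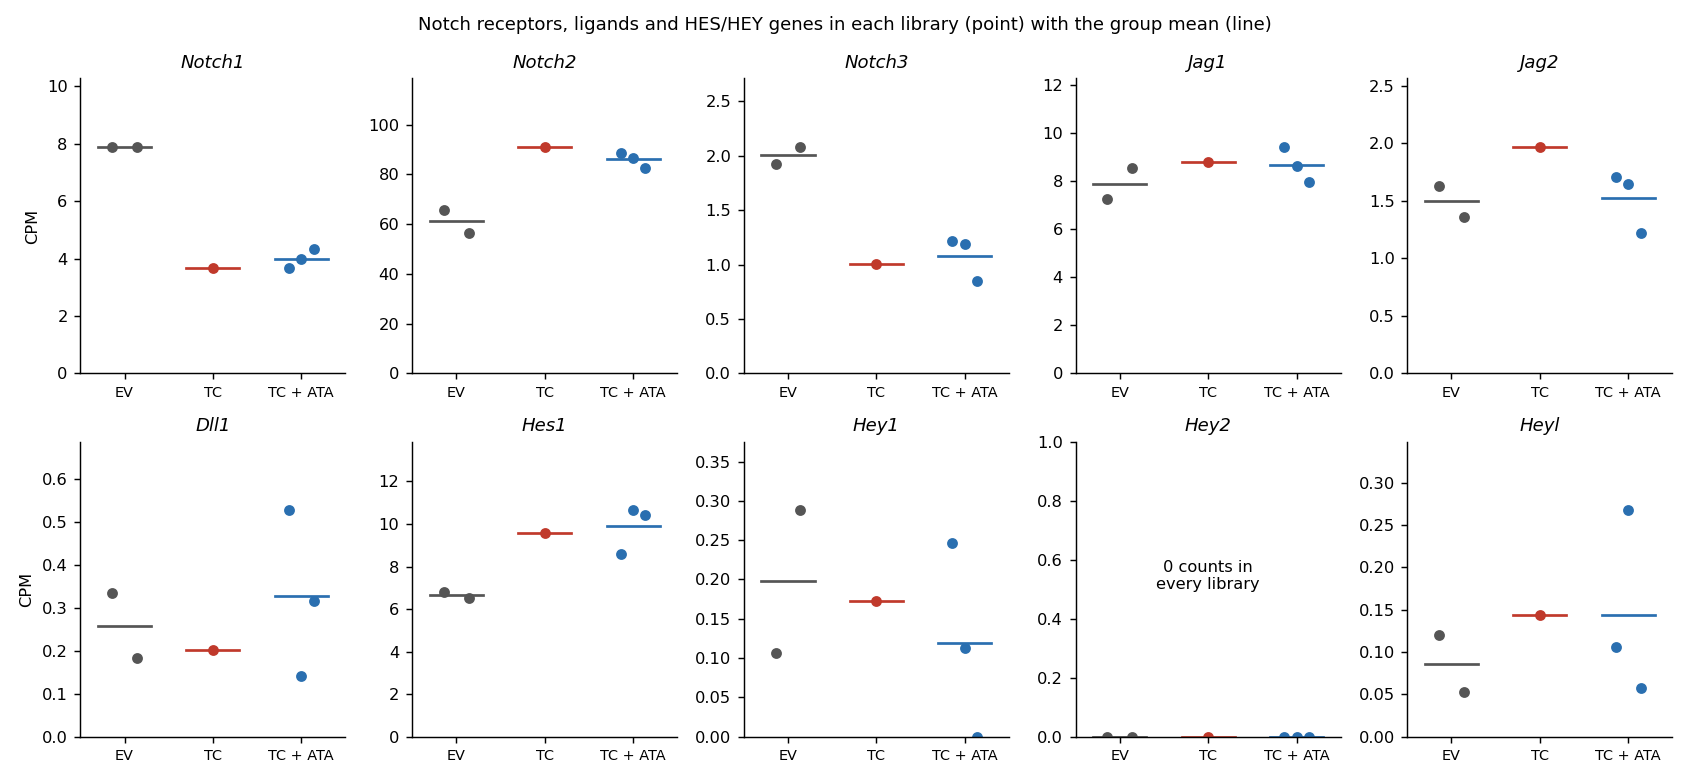
Level of each of the 10 Notch pathway genes in every library, with CPM on the vertical axis (a separate scale for each gene, starting at 0) and the 3 groups on the horizontal axis. Points are libraries and lines are group means. For Notch1, the TC and TC + ATA points lie between 3.68 and 4.33 CPM, below both EV points at 7.90 and 7.91 CPM, and for Notch2 and Hes1 they lie above both EV points.

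Notch1 encodes the receptor that is best known from T cell and vascular development. Its level was 7.90 and 7.91 CPM in EV, 3.69 CPM in TC, and 3.68, 3.99 and 4.33 CPM in TC + ATA. The EV libraries were almost equal, and the 4 TAZ-CAMTA1 libraries lay together well below them, without overlap. Notch1 fell by 1.10 on the log2 scale in TC (SE 0.17, 95% interval -1.49 to -0.71, adjusted p = 0.00149 by edgeR), and kept this call in all 13 alternative analyses, with log2 fold changes from -1.21 to -1.07. The gene lies on the minus strand of chr2:26457903-26516663. Of its 14232 exonic bases, 1068 are shared with 0610009E02Rik on the opposite strand, which was at 0.437 to 0.896 CPM, and the use of strand in the counting is not stated.

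Notch2 encodes the receptor with the highest level per kilobase of exon in these cells. It was measured at 65.9 and 56.5 CPM in EV, 91.2 CPM in TC, and 88.7, 86.8 and 82.7 CPM in TC + ATA. All TAZ-CAMTA1 libraries were higher than both EV libraries. Notch2 rose by 0.58 in TC on the log2 scale (SE 0.10, 95% interval 0.35 to 0.81, adjusted p = 0.00273 by edgeR) and was called higher in every alternative too, at 0.47 to 0.68. It lies on the plus strand of chr3:98013527-98150361 and shares 541 of its 10782 exonic bases with Gm42820, which did not exceed 0.216 CPM.

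Notch3, the receptor known from vascular smooth muscle and pericytes, was low. It had 1.93 and 2.09 CPM in EV, 1.01 CPM in TC, and 1.21, 1.18 and 0.848 CPM in TC + ATA. Each TAZ-CAMTA1 library was below each EV library, but the difference of TC from EV did not pass the threshold, at a log2 fold change of -0.99 (SE 0.34, 95% interval -1.77 to -0.21, adjusted p = 0.0608 by edgeR). It passed when libraries were scaled by their totals only (adjusted p = 0.0439 by edgeR) or without EV replicate 1 (adjusted p = 0.0499 by edgeR, with EV then 1 library). The gene is on the minus strand of chr17:32120820-32166852.

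The receptor makeup of the libraries moved with these genes. Per kilobase of exon, Notch2 made up 87.3% and 85.0% of the summed level of Notch1 to Notch4 in EV, 94.1% in TC, and 94.3%, 93.6% and 93.6% in TC + ATA. Notch1 made up 7.93% and 9.01% in EV, 2.88% in TC, and 2.96%, 3.26% and 3.71% in TC + ATA. In EV the level of Notch2 per kilobase was therefore 11.0 and 9.43 times that of Notch1, whereas in TC it was 32.7 times and in TC + ATA 31.8, 28.7 and 25.2 times. Notch4, which is not in the set and is known from endothelium, took 1.05% to 1.82% of the sum in all libraries and was not called in any comparison. For the shares of Notch1, Notch2 and Notch3, which restate the levels above, EV did not overlap with TC or TC + ATA, while the Notch2 and Notch3 shares of TC lay within the range of TC + ATA. These shares were not tested.

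**Figure D2:**
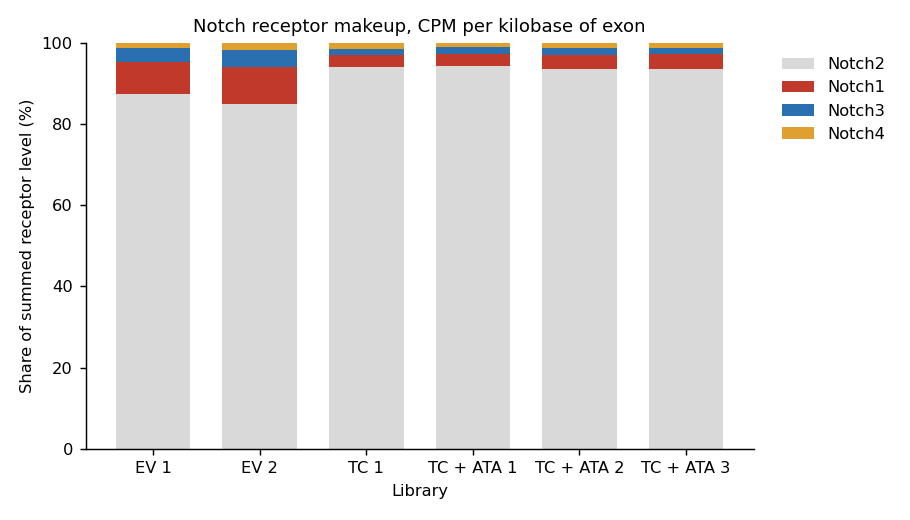
Stacked bars of the share, in percent, of each Notch receptor gene in the summed level of Notch1 to Notch4 (CPM per kilobase of exon) for every library. Notch2 fills 85.0% to 87.3% of the EV bars and 93.6% to 94.3% of the bars of TC and TC + ATA, and the Notch1 segment is correspondingly narrower in the latter.

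Jag1, a Jagged ligand widely used between mesenchymal cells, was at 7.25 and 8.56 CPM in EV, 8.80 CPM in TC, and 9.45, 8.62 and 7.97 CPM in TC + ATA, and the ranges of EV and TC + ATA overlapped. Between TC and EV its log2 fold change was 0.15, with a 95% interval of -0.21 to 0.52. Jag2, the second Jagged ligand, had 1.63 and 1.36 CPM in EV, 1.97 CPM in TC, and 1.71, 1.65 and 1.22 CPM in TC + ATA. The TC library was the highest, and the other groups overlapped. The log2 difference of Jag2 between TC and EV was 0.40, with a 95% interval of -0.30 to 1.10. Dll1, a Delta-like ligand, was near the limit of detection, with 0.141 to 0.528 CPM, or 10 to 30 counts per library, and no order of the groups. Its interval in TC versus EV, -2.33 to 1.61, covers large changes in either direction, so a difference was not detectable with these libraries. Per kilobase, Jag1 gave 79.9% to 86.0% of the summed level of the 3 ligands in each library. Jag1 lies on the minus strand of chr2:137081456-137116644, Jag2 on that of chr12:112907819-112929776 and Dll1 on that of chr17:15367354-15376872, where 867 of 4219 exonic bases are shared with A930024N18Rik on the opposite strand.

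Hes1, a basic helix-loop-helix repressor and a direct target of Notch in many cells, had 6.82 and 6.50 CPM in EV, 9.57 CPM in TC, and 8.59, 10.7 and 10.4 CPM in TC + ATA. The 4 TAZ-CAMTA1 libraries were above both EV libraries. Hes1 rose by 0.52 in TC on the log2 scale (SE 0.16, 95% interval 0.17 to 0.88, adjusted p = 0.0362 by edgeR). This call was lost in 5 of 13 alternatives, in which the log2 fold change stayed between 0.41 and 0.58. They were scaling by library totals, only the 2 groups compared, the replicate block, and leaving out TC + ATA replicate 2 (adjusted p = 0.0602 by edgeR) or TC + ATA replicate 3 (adjusted p = 0.0741 by edgeR). Hes1 lies on the plus strand of chr16:30064384-30067796.

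The HEY genes, whose products are related repressors best known from heart and blood vessels, were barely detected. Hey1 had 8 and 22 counts in EV, 12 in TC, and 14, 8 and 0 in TC + ATA. Heyl had 9 and 4 counts in EV, 10 in TC, and 6, 19 and 4 in TC + ATA. In both genes EV overlapped with TC + ATA, and the single TC library lay between the EV libraries for Hey1 and 1 count above the higher of them for Heyl. The intervals in TC versus EV ran from -3.28 to 2.89 for Hey1 and from -1.78 to 3.24 for Heyl. The 0 counts of Hey2 allow up to 0.0403 to 0.0513 CPM of the unscaled totals in the different libraries, from 3 counts of the total and for counting error only. Per kilobase, Hes1 therefore made up 97.0% to 99.8% of the summed level of Hes1, Hey1, Hey2 and Heyl. Hey1 lies at chr3:8663359-8667256 and Hey2 at chr10:30832359-30842801, both on the minus strand, and Heyl on the plus strand of chr4:123233556-123249875.

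Ordered by mean level per kilobase of exon, the set in EV ran from Notch2 (5.68 CPM per kilobase) through Hes1 (3.27), Jag1 (1.36), Notch1 (0.555), Notch3 (0.248) and Jag2 (0.215) to Dll1 and Hey1 (both about 0.061) and Heyl (0.017). Neighbours in this order did not overlap between the EV libraries, except Dll1 and Hey1. In TC the order changed in the middle, where Jag2 (0.283) stood above Notch1 (0.259) and Notch3 (0.125). Lower down, Hey1 (0.053) stood above Dll1 (0.048), the neighbours that overlapped in EV. The order in TC rests on 1 library, and neither Notch1 nor Jag2 was called between TC + ATA and TC. In TC + ATA, Notch1 (0.281) was above Jag2 (0.219). There the libraries of Notch3 overlapped with those of Dll1, Dll1 with Hey1, and Hey1 with Heyl.

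**Figure D3:**
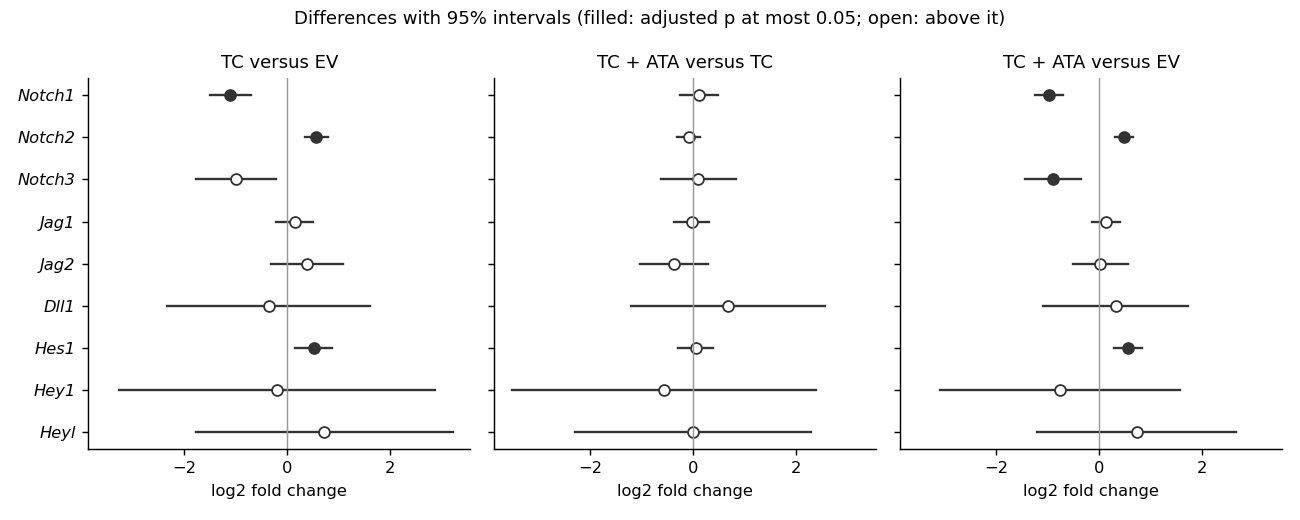
Log2 fold change of the 9 tested genes in the 3 comparisons, with 95% intervals as bars, filled points where the adjusted p-value did not exceed 0.05 and open points elsewhere. Notch1 lies left of 0 and Notch2 and Hes1 right of 0 in both comparisons with EV, while every interval of TC + ATA versus TC spans 0.

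The second question was whether ATA changed these genes in TC cells. Between TC + ATA and TC, 0 of the 9 genes were called by edgeR in either direction, 0 had an unadjusted p below 0.05, and DESeq2 called 0. For the whole transcriptome these shares were 0.426% higher and 0.156% lower, so a count of 0 is near the background. The median log2 fold change of the set was 0.01, and that of all genes tested was 0.00. The difference for Notch1 was 0.12 with a 95% interval of -0.25 to 0.48, for Notch2 it was -0.08 (-0.30 to 0.13) and for Hes1 0.05 (-0.29 to 0.39). TC differed from EV by -1.10, 0.58 and 0.52 on the same scale, and none of these intervals reaches back that far. Those distances are estimates too. For Hes1 the 95% interval of TC versus EV was 0.17 to 0.88, and its lower part lies within reach of -0.29. Between TC + ATA and TC, the interval for Notch3 was wider, at -0.63 to 0.83 around 0.10, and that for Jag2 was -1.03 to 0.29 around -0.37. All these intervals rest on the single TC library.

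TC + ATA versus EV is the comparison with more than 1 library on each side, and it shares its EV and its TC + ATA libraries with the other comparisons. Its groups differ in both TAZ-CAMTA1 and ATA, which cannot be told apart within it. In this comparison, 2 of the 9 genes were called higher (Notch2 and Hes1) and 2 lower (Notch1 and Notch3). The whole transcriptome gave 18.0% higher and 18.6% lower calls here. Notch1 fell by 0.98 on the log2 scale (SE 0.12, adjusted p = 0.000254 by edgeR). Notch2 rose by 0.49 (SE 0.08, adjusted p = 0.00111 by edgeR), and Hes1 by 0.57 (SE 0.12, adjusted p = 0.00543 by edgeR). Notch3 fell by 0.89 (SE 0.24, adjusted p = 0.0184 by edgeR), a call that was lost without TC + ATA replicate 3, its lowest library (adjusted p = 0.0690 by edgeR), and with the replicate block (adjusted p = 0.127 by edgeR).

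The rest of the pathway was followed in 59 further genes sorted by role, of which 53 were tested. In TC versus EV, 10 of them were called higher and 7 lower, and 2 of these, Dlk1 and Tle2, changed by more than 2 on the log2 scale. In all, 32.1% of these genes were called, against 28.0% of all genes tested. The median log2 fold change was 0.02 for these 53 genes, against -0.03 for all genes tested. Each of the 7 roles held at least 1 call, and the largest called changes were the decreases of Tle2 and Dlk1. The TC versus EV counts by role that follow stand beside 14.8% higher and 13.2% lower calls among all genes tested.

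**Figure D4:**
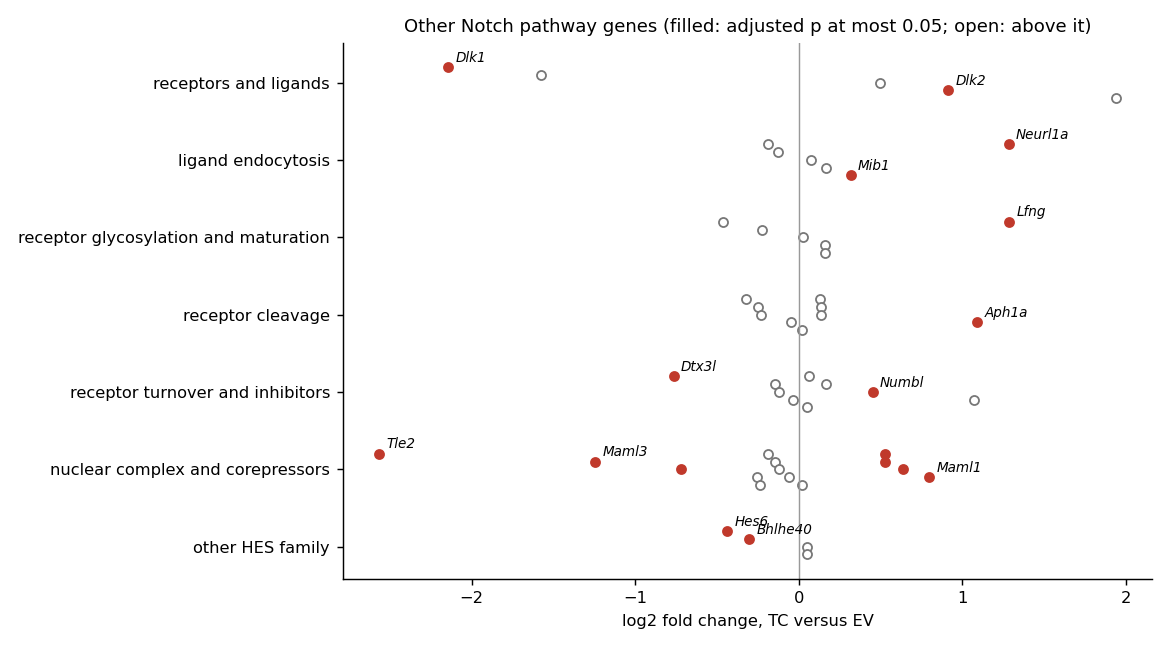
Log2 fold change in TC versus EV (horizontal axis) of the 53 further pathway genes, in rows by role, with filled points where the adjusted p-value did not exceed 0.05 and open points elsewhere. Dlk1 at -2.14 and Tle2 at -2.56 stand furthest to the left, and the filled points furthest to the right are Lfng, Neurl1a and Aph1a, between 1.09 and 1.29.

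Among the other receptors and ligands, 1 of 5 tested genes was called higher and 1 lower. Dlk1, a Delta-like protein that lacks the domain by which the usual ligands bind and that is known for holding back fat cell differentiation, had 1909 and 1711 CPM in EV, 409 CPM in TC, and 548, 585 and 555 CPM in TC + ATA. The TAZ-CAMTA1 libraries were far below EV, and the 3 TC + ATA libraries were all above TC. Dlk1 fell by 2.14 on the log2 scale in TC (SE 0.12, adjusted p = 2.85e-06 by edgeR). Its relative Dlk2 had 14.1 and 16.0 CPM in EV, 28.3 CPM in TC, and 34.0, 31.9 and 31.1 CPM in TC + ATA. Dlk2 rose by 0.91 in TC (SE 0.11, adjusted p = 0.000292 by edgeR), so the 2 relatives differed from EV in opposite directions. Per kilobase, the level of Dlk1 was 271 and 206 times that of Jag1 in EV, 47.9 times in TC, and 59.7, 69.9 and 71.8 times in TC + ATA. Dll3, Dll4 and Dner did not exceed 0.259 CPM in any library.

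Of the 6 genes for the ubiquitin ligases and adaptors that drive ligand endocytosis in the signal-sending cell, 2 were called higher and 0 lower in TC. Neurl1a, a ubiquitin ligase, was at 5.40 and 4.83 CPM in EV, 12.4 CPM in TC, and 15.5, 14.8 and 14.4 CPM in TC + ATA, and rose by 1.28 (SE 0.12, adjusted p = 7.84e-05 by edgeR). It shares 690 of its 7284 exonic bases with AC132288.2 on the same strand, which did not exceed 0.705 CPM. Mib1, the ligase needed for most ligand signalling, rose by only 0.32 (SE 0.09, adjusted p = 0.0292 by edgeR), and 6 of 13 alternatives ended that call. Leaving out any of the 3 TC + ATA replicates was among them, with adjusted p-values of 0.0662, 0.0754 and 0.0686 by edgeR.

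Of the 6 genes that modify the receptors on their way to the surface, 1 was called higher. Lfng, a Fringe glycosyltransferase that changes which ligands a Notch receptor answers to, had 10.1 and 12.8 CPM in EV, 27.9 CPM in TC, and 27.6, 28.2 and 29.2 CPM in TC + ATA. All TAZ-CAMTA1 libraries were more than 2 times as high as either EV library, and the increase in TC was 1.29 on the log2 scale (SE 0.13, adjusted p = 0.000108 by edgeR). Pofut1, Rfng and Furin had log2 fold changes of 0.16, 0.03 and 0.16 and were not called.

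Of the 9 genes for the proteases that cut the receptor, 1 was called higher in TC, Aph1a, a subunit of γ-secretase. It had 68.9 and 65.2 CPM in EV, 143 CPM in TC, and 144, 159 and 140 CPM in TC + ATA, and rose by 1.09 (SE 0.09, adjusted p = 4.09e-05 by edgeR). Aph1a shares 445 of its 3450 exonic bases with Car14 on the opposite strand, which was at 0.428 and 0.302 CPM in EV, 5.73 CPM in TC and 6.66 to 6.92 CPM in TC + ATA, and the part of these reads in the Aph1a counts was not tested. The γ-secretase genes Psen2, Ncstn, Aph1b, Aph1c and Psenen and the ADAM protease genes Adam10 and Adam17 did not pass the test between TC and EV. Against EV, the TC + ATA libraries had 4 of the 9 genes called higher, against 18.0% of all genes tested, with Adam10 at 0.39 (SE 0.07, adjusted p = 0.00161 by edgeR), Adam17 at 0.21 and Ncstn at 0.25 beside Aph1a at 1.14.

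Of the 9 tested genes for receptor turnover and inhibitors, 1 was called higher and 1 lower. Numbl, an endocytic adaptor related to the Notch inhibitor Numb, rose by 0.45 (SE 0.07, adjusted p = 0.00189 by edgeR), from 89.4 and 87.7 CPM in EV to 121 CPM in TC. Dtx3l, of the Deltex ubiquitin ligase family, fell by 0.76 (SE 0.18, adjusted p = 0.0117 by edgeR), from 5.31 and 5.42 CPM in EV to 3.16 CPM in TC, and had 4.75, 4.18 and 4.36 CPM in TC + ATA. It shares 458 of its 5725 exonic bases with Parp9 on the opposite strand, which was at 8.44 and 8.30 CPM in EV, 4.94 CPM in TC and 5.35 to 6.46 CPM in TC + ATA, and the part of these reads in the Dtx3l counts was not tested. Nrarp, a feedback inhibitor that Notch itself induces, did not exceed 0.0564 CPM and did not pass the filter on low counts. Of its 2582 exonic bases, 2051 are shared with Gm38287 on the opposite strand, and whether reads were lost there in the counting is not known.

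Of the 14 nuclear genes, the longest of these lists, 4 were called higher and 3 lower in TC, against the 28.0% of all genes tested that were called in either direction. Rbpj, the DNA-binding partner of the receptor's intracellular domain, rose by 0.53 (SE 0.08, adjusted p = 0.00165 by edgeR), from 108 and 97.8 CPM in EV to 148 CPM in TC. The coactivator genes of the Mastermind family went different ways. Maml1 had 71.8 and 72.3 CPM in EV, 125 CPM in TC, and 123, 128 and 119 CPM in TC + ATA, and rose by 0.80 (SE 0.08, adjusted p = 9.38e-05 by edgeR). Maml3 had 13.7 and 15.0 CPM in EV, 6.04 CPM in TC, and 5.60, 6.25 and 6.95 CPM in TC + ATA, and fell by 1.25 (SE 0.16, adjusted p = 0.000529 by edgeR). Maml2 was not called, at -0.15. The corepressor gene Spen rose by 0.64 (SE 0.08, adjusted p = 0.000287 by edgeR).

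Tle2, a corepressor of the Groucho family with which HES proteins work, had the largest decrease of the 53 genes. It was at 36.1 and 61.2 CPM in EV, 8.23 CPM in TC, and 12.7, 12.0 and 14.2 CPM in TC + ATA. The EV libraries differed widely from each other, and both were far above the rest. Tle2 fell by 2.56 on the log2 scale in TC (SE 0.29, adjusted p = 0.000225 by edgeR). Tle5, a shorter member of the same family listed in the annotation as Aes, fell by 0.72 (SE 0.11, adjusted p = 0.00137 by edgeR), while Tle1, Tle3 and Tle4 were not called in TC versus EV. Of 4 HES family genes tested outside the set, 2 were called lower and 0 higher, against 13.2% and 14.8% of all genes tested. Hes6, which is known to oppose Hes1, fell by 0.44 (SE 0.11, adjusted p = 0.0183 by edgeR), a call that ended with only the 2 groups compared (adjusted p = 0.102 by edgeR) and with the replicate block (adjusted p = 0.104 by edgeR). Bhlhe40, a related repressor, fell by 0.30 (SE 0.10, adjusted p = 0.0495 by edgeR), a call that 8 of 13 alternatives ended. Among those were the fits without TC + ATA replicate 1, 2 or 3, with adjusted p-values of 0.0945, 0.0942 and 0.0972 by edgeR.

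**Figure D5:**
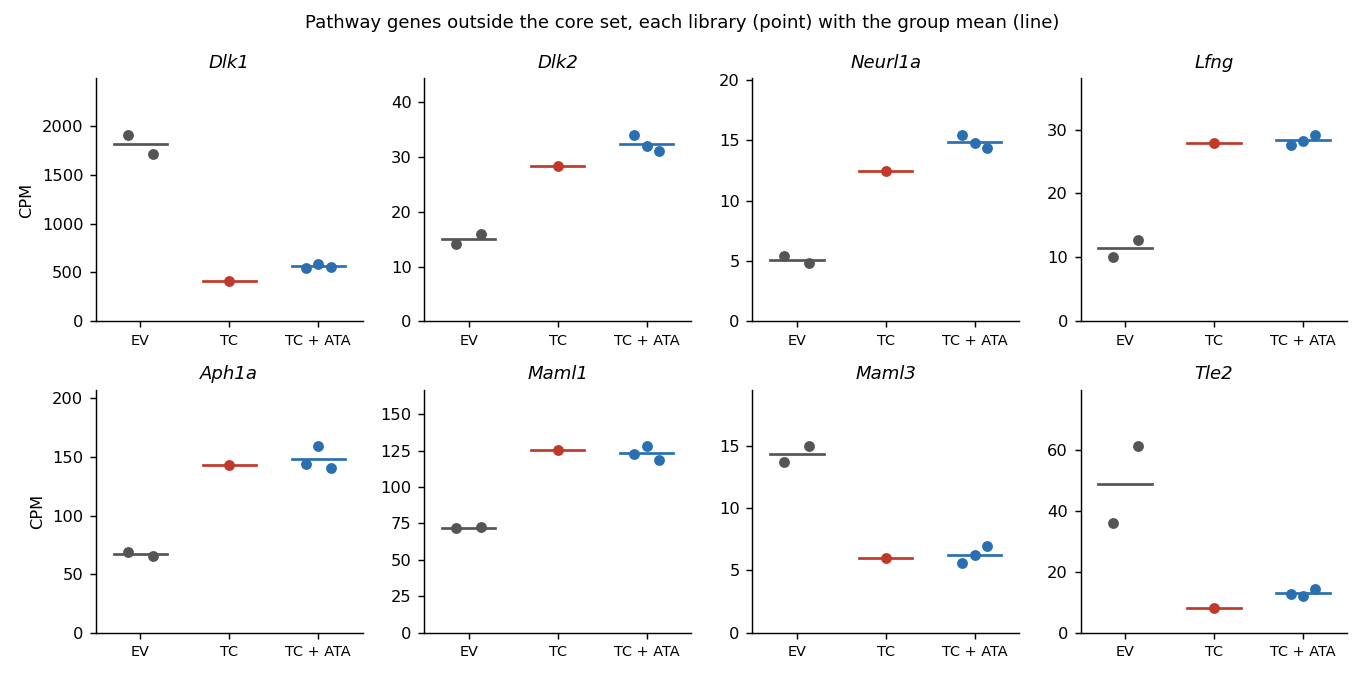
Level in CPM of 8 further pathway genes in every library (points, with group means as lines), each on its own vertical scale from 0. Dlk1, Maml3 and Tle2 are lower in all TC and TC + ATA libraries than in either EV library, and Dlk2, Neurl1a, Lfng, Aph1a and Maml1 are higher.

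Of the 53 genes, 0 were called between TC + ATA and TC by edgeR, 6 had an unadjusted p below 0.05 (1781 of all 18539 genes tested did), and DESeq2 called 1, Dlk1. Dlk1 was 0.46 higher in TC + ATA on the log2 scale (SE 0.10, adjusted p = 0.110 by edgeR, adjusted p = 0.000490 by DESeq2), which leaves it 1.69 below EV. It was also called when only the 2 groups compared were used, with library totals as the scale, with no filter on low counts, and without EV replicate 1 (adjusted p = 0.000114 by edgeR) or EV replicate 2 (adjusted p = 9.74e-05 by edgeR). Tle2 was 0.66 higher on that scale (SE 0.26, adjusted p = 0.465 by edgeR) and was called, with Adam10 and Adam17, in the alternatives where EV did not enter the fit or gave 1 library. Against EV, 14 of the 53 were called higher and 9 lower in TC + ATA, which is 43.4% of them against 36.6% of all genes tested.

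The genes whose profile over the 6 libraries was closest to that of Notch1, by Euclidean distance of centred log2(CPM + 0.5) values, were 2410006H16Rik (0.108), Kcnab2 (0.108) and Fam160a1 (0.117), against a median distance of 1.13 for all genes considered. Their log2 fold changes in TC versus EV were -0.97, -1.03 and -1.03, a likeness that the choice by profile fixes. For Notch2 the closest were Ppp1r3e (0.041), Cltc (0.050) and Vcp (0.055), with a median of 0.741. Their log2 fold changes were 0.80, 0.55 and 0.53, beside 0.58 for Notch2, a likeness that the choice fixes for Cltc and Vcp. Ppp1r3e was at 0.918 to 1.80 CPM, where the added 0.5 makes differences in its profile smaller. It was not called (adjusted p = 0.0701 by edgeR). Cltc, the clathrin heavy chain, was at 267 and 226 CPM in EV, 361 CPM in TC and 342 to 358 CPM in TC + ATA, so it shared with Notch2 the higher level of EV replicate 1 over EV replicate 2.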

How the data were processed

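Poly(A)-selected RNA of 6 NIH3T3 libraries was sequenced as paired-end reads. The authors aligned them to GRCm38.p6 (mm10) with HISAT2 2.2.1 and counted them per gene with featureCounts in Galaxy. The counts they deposited are whole numbers per gene and are not normalized. The annotation release, the use of strand and the handling of reads with several matches are not given in the sources used here.

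Groups and replicate numbers came from the labels. Genes were tested with the quasi-likelihood F test of edgeR 4.0.16 under R 4.3.3 (1 fit of all 6 libraries, filterByExpr, TMM, 3 residual degrees of freedom). SEs were derived from the F statistic. Of 55401 gene identifiers, 55141 were named from GENCODE M21, which also gave positions and exonic lengths. The exonic length counts every base in any annotated exon of a gene, so levels per kilobase and their ratios depend on that choice. DESeq2 1.42.0, other scalings and filters, a fit on the groups compared, a replicate block and leaving out each EV and TC + ATA replicate were the alternatives. The script was tested on simulated data. Protein sequences were not used here.

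The genes and lists were chosen with earlier results of these data known. Of the further lists, up to 3 called genes per role with the largest change in TC versus EV are named, and the 3 closest profiles to the 2 genes of the set with the largest called change. Rbpj, Spen, Tle5, Adam10, Adam17, Ncstn and the genes named as not called were added after their values were seen. Some genes of the lists are counted but not reported here by name.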

Additional observations from a re-analysis of the deposited data

How the results depend on the processing

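The results were recomputed under 13 other settings. Of 845 values for 66 single-gene results, 778 kept their direction and their side of the threshold, 36 lost a call, 11 gained one and 20 changed sign. In TC versus EV the calls for Notch1 and Notch2 held in every alternative. With 1 TC library and 2 EV libraries the number of libraries limits the precision, and Dll1, Hey1, Heyl and Hey2 had at most 30 counts in a library. Without an EV replicate, EV has 1 library that is assumed to vary like the other groups.

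In TC versus EV, the number of genes of the set called higher was 1 with library totals as the scale, with only the 2 groups compared and with the replicate block, and 1 to 2 with a replicate left out. The number called lower was 2 with library totals and 1 to 2 with a replicate left out. The further genes called lower ranged from 6 to 14, and all genes called lower from 1912 to 3708, with a replicate left out. Library totals moved the median log2 fold change of all genes by -0.11 and gave 2072 genes higher and 3159 lower (39.6% higher, against 52.7%), and 2711 higher and 4384 lower in TC + ATA versus EV (38.2%, against 49.2%).

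Numbers 1 and 2 label replicates of both EV and TC + ATA. The correlations of their deviations from the group means were -0.03 and -0.15. The deviations of the 2 EV libraries mirror each other, so these are not independent checks and cannot exclude pairing. The main fit does not take the numbers to pair libraries, and the replicate block is given as an alternative. The replicate block gave 1717 genes higher and 1467 lower between TC and EV, 32 and 8 between TC + ATA and TC, and 2195 lower between TC + ATA and EV, where it left 1 gene of the set and 5 further genes lower.

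With ATA against TC, 0 further genes were called higher by edgeR, and 1 by DESeq2, with library totals or without a filter, 4 with only the 2 groups compared and 0 to 4 with a replicate left out. All genes called higher and lower were 79 and 29 in edgeR, 236 and 84 in DESeq2, 242 and 108 without a filter, and 795 and 633 with only the 2 groups compared. With a replicate left out they were 7 to 808 and 3 to 762, and the lowest values came without TC + ATA replicate 3. For TC + ATA versus EV, genes called lower with a replicate left out were 1 to 2 in the set and 5 to 15 further genes.

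The values that changed sign were all uncalled. The replicate block gave, for TC + ATA versus TC, Notch2 0.0072, Jag1 0.010, Hes1 -0.057, Lfng -0.088 and Maml3 -0.10, and library totals gave Jag2 -0.059 in TC + ATA versus EV. Leaving out a replicate gave, for TC against EV, Dll1 -0.73 to 0.12 and Hey1 -0.75 to 0.68. For ATA against TC the ranges were Jag1 -0.085 to 0.038, Hes1 -0.0071 to 0.14, Hey1 -1.58 to 0.036, Aph1a -0.0098 to 0.086, Maml3 -0.024 to 0.13 and Maml1 -0.052 to 0.0043. For TC + ATA against EV they were Jag2 -0.089 to 0.17, Dll1 -0.18 to 0.80 and Hey1 -1.77 to 0.12. The cause of these changes was not tested.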
